A study of Mus musculus with 2 samples.

Results

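In mature olfactory sensory neurons of the mouse, 227 intervals of more than 1 Mb lay between adjacent chromatin boundaries with no boundary inside. They were chosen by the distance between neighbours: the deposited boundaries of each chromosome were sorted by position, and lengths were measured from the midpoint of one boundary to the midpoint of the next. Of 7415 such intervals on chromosomes 1 to 19 and X, 3.06% passed 1 Mb. Together they spanned 322.5 Mb, which is 12.6% of the distance from the first to the last boundary of the chromosomes. Length chose the intervals, so their lengths are given as a description, and gene content, base composition, repeated sequence and the scores of the flanking boundaries are what the choice did not use directly.

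The cells were primary neurons that express the odorant receptor gene Olfr16 (MOR23), sorted by flow cytometry. Their source was the olfactory epithelium of MOR23-GFP mice, adults of mixed sex. The labels specify no strain and list no treatment and no modification. In situ Hi-C, which joins neighbouring DNA ends in the fixed nucleus and sequences the joined pairs, was run with DpnII and 1% formaldehyde on 28000 cells in biological replicate 1 and 24400 cells in biological replicate 2. The authors called boundaries once, on the contacts of both replicates combined. Every interval therefore has 1 pooled position and no value per replicate, the depth behind each boundary is unknown, and no difference below could be tested against the spread between animals. The list holds no expression values, so the labelled cell type could not be checked against its marker genes.

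A boundary is a position across which few contacts form, between stretches of chromosome with many internal contacts. In mammals such positions are often occupied by the insulator protein CTCF, which together with cohesin limits the growth of DNA loops, and many lie at starts of active genes. Long stretches without such a position can be gene deserts, single genes of great length, many of which encode adhesion and synapse proteins of neurons, or tandem families, that is, neighbouring copies of one ancestral gene such as receptor, pheromone or zinc finger genes.

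In many of the longest intervals the sequence itself recurs. The share of unique sequence was measured as the percentage of sampled 50 bp words that occur once in the genome, on both strands, and it fell under 60% in 27 of the 227 intervals, among them all of the 14 longest. Below is, for 8 of these intervals, the 50 bp word with the most copies inside among words of at least 20 copies that have at least 90% of them in the interval, as read on the + strand of GRCm38, to show how one sequence recurs within an interval without a boundary. Such words from other intervals are not shown, and none of those matches the motif given next. Capitals mark matches to ACNGGAGAGAAACC, searched on both strands, which spells codons of the linker between neighbouring zinc fingers and was chosen after the words were seen.
Chromosome X, interval of 11.7 Mb, word at chrX:24397704-24397753: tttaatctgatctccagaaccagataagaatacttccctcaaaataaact
Chromosome 14, interval of 3.75 Mb with many predicted genes, word at chr14:41231437-41231486: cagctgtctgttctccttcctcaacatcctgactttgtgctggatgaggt
Chromosome 7, interval of 3.56 Mb with type 1 vomeronasal receptor genes, word at chr7:20121896-20121945: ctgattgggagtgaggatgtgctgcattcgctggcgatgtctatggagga
Chromosome 2, interval of 3.44 Mb with zinc finger genes, word at chr2:175018510-175018559: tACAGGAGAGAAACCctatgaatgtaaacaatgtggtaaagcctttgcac
Chromosome 7, interval of 3.30 Mb with type 2 vomeronasal receptor genes, word at chr7:7231546-7231595: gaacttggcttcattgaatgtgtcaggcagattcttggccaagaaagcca
Chromosome 4, interval of 2.54 Mb with zinc finger genes, word at chr4:145622853-145622902: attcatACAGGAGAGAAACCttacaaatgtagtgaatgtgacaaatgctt
Chromosome 8, interval of 2.27 Mb with defensin genes, word at chr8:19759798-19759847: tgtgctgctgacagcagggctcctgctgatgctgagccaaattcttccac
Chromosome 13, interval of 1.92 Mb, word at chr13:65337929-65337978: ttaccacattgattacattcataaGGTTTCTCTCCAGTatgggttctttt

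The words were selected for lying in 1 interval, so their copy numbers are a description. The word on chromosome 8 had 200 of its 201 copies in its interval, the word of chromosome X 64 of 64, and the word of the chromosome 13 interval 79 of 79. On chromosome 2 the word occurred 76 times, all inside the interval, and lay in an exon of the predicted protein-coding gene Gm14444 (this gene and Gm16442 were chosen after their values were seen). In the interval with type 2 vomeronasal receptor genes, 34 of 34 copies were inside, and the copy shown lay in an exon of Vmn2r29, a pheromone receptor gene. The word from the other chromosome 7 interval lay in an exon of the predicted gene Gm16442 and had 45 of 46 copies inside. The least local of the words shown were those of chromosome 14, with 38 of 41 copies inside, and chromosome 4, with 27 of 30.

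The linker motif was concentrated in a few of the intervals. It was taken from words that recur inside long intervals, so its excess there is part of how it was chosen and is given with no contrast drawn from it. Intervals over 1 Mb held 1900 matches (6.01 per Mb), against 1404 matches (0.642 per Mb) in intervals of at most 1 Mb. Among intervals with at least 60% unique words the order was the opposite, with 73 matches (0.290 per Mb) in long intervals and 1261 (0.581 per Mb) in the others. At least 1 match was present in 28 long intervals (12.3%), against 289 of the others (4.02%), which are shorter. The 5 richest intervals held 88.2% of the matches in long intervals. They were the 3.44 Mb on chromosome 2 with 532 matches, the 1.92 Mb on chromosome 13 with 332, intervals of 3.26 and 2.98 Mb on chromosome 12 with 314 and 296, and the 2.54 Mb on chromosome 4 with 201. Those on chromosome 12 contained only 3 and 2 protein-coding starts, beside 81 and 63 pseudogenes. A match is a run of letters, not a measured protein.

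Most intervals over 1 Mb were only a little longer than the limit. Their median length was 1215 kb (quartiles 1085 and 1422.5 kb), against a median of 260 kb (quartiles 180 and 380 kb) for the other 7188. Lengths between 1 and 1.5 Mb were found in 182 intervals, lengths between 1.5 and 2 Mb in 27, and lengths over 2 Mb in 18. Of the 18 longest, 14 had under 60% unique words, whereas only 7 of the 182 in the shortest group did. The longest interval, chrX:24140001-35835000, measured 11.7 Mb, of which 14.8% is assembly gap, and 11.8% of its sampled words were unique. All chromosomes had some: 3 on chromosome 19, 15 on X and 22 on chromosome 4, and they took up 6.50% of the boundary span of chromosome 19 but 21.2% of that of chromosome 14.

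**Figure D1:**
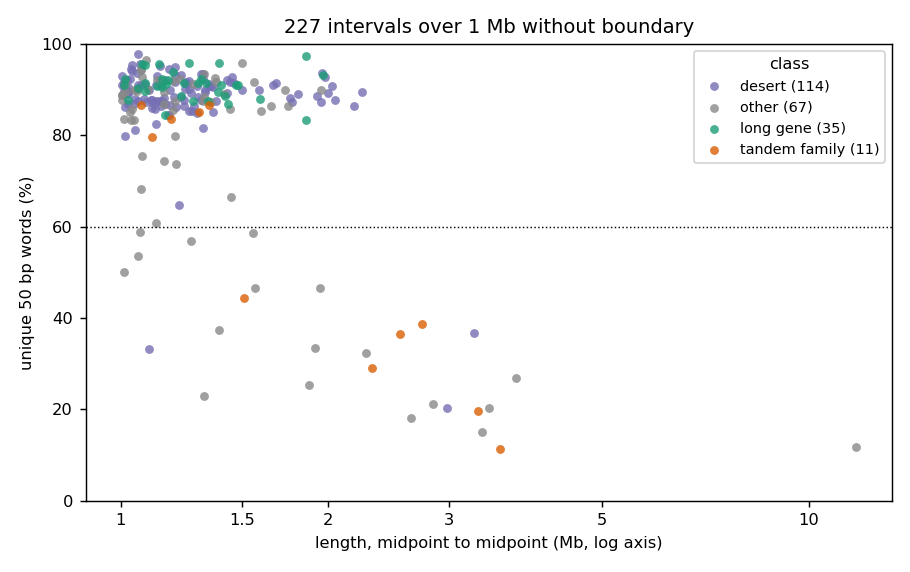
Length of the 227 intervals over 1 Mb (x axis, Mb, log scale) against the percentage of sampled 50 bp words that occur once in the genome (y axis), with points coloured by class and a dotted line at 60%. All 14 longest intervals lie under the line, while every interval of the long gene class has at least 83.3% unique words.

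Repeated sequence was also counted in fixed windows, independent of where the intervals begin. Windows of 100 kb with under 60% unique words numbered 840, and 571 of them (68.0%) lay inside intervals over 1 Mb, where the same intervals held 12.5% of all 25446 windows. Seen from the intervals, 27 of 227 (11.9%) had under 60% unique words, against 37 of 7188 (0.515%) of the others and 0.863% of all intervals. Reads from repeated sequence can fail to be placed, and the part of this in the missing boundaries was not tested. For that reason some contrasts, among them those of protein-coding genes and pseudogenes, are also given for the 200 long intervals with at least 60% unique words.

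Intervals over 1 Mb were poor in genes. They contained 1124 protein-coding gene starts, 3.50 per Mb, against 19712 starts and 8.99 per Mb in intervals of at most 1 Mb, a ratio of 0.389. In intervals with at least 60% unique words the densities were 1.94 and 8.94 per Mb, a ratio of 0.217. The contrast varied with GC content. Under 38% GC there were 1.80 starts per Mb in long intervals against 2.70 in the others, and between 38 and 40% GC 2.67 against 4.43. Between 40 and 42% GC the order was the opposite, 8.10 against 6.73 per Mb. At 42% GC and above the densities were 3.98 and 13.6 per Mb. The 27 long intervals with few unique words held 635 starts, 9.18 per Mb, out of the 1124. No protein-coding start was found in 65 long intervals (28.6%, exact 95% interval 22.8 to 35.0%), against 23.8% of the others and 24% of all, although the others are much shorter. Another 71 held 1 start, and the 29 with 10 or more starts held 849 of the 1124 (75.5%). Of the 136 long intervals with 0 or 1 start, 26 were at least 50% covered by the body of a single gene.

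Other annotated features followed different patterns. Starts of long noncoding RNA genes had a density of 1.76 per Mb inside long intervals, against 3.99 per Mb in the others, and miRNA genes 0.423 against 0.904 per Mb. Pseudogenes, copies of genes that no longer encode a protein, were denser in long intervals, 6.26 against 4.68 per Mb, but this was set by the intervals of few unique words, where the density was 16.6 per Mb. With at least 60% unique words it was 3.43 per Mb in long intervals, against 4.58 per Mb in the others. Over the 20 chromosomes, pseudogenes were denser in long intervals on 10 and less dense on 10.

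Base composition differed in the same direction on every chromosome. Median GC content was 38.5% in intervals over 1 Mb (quartiles 37.2 and 40.2%), against 42.7% in the others (quartiles 39.9 and 45.6%). Median repeat-masked sequence was 38.6% against 30.5%. Protein-coding density, median GC content, median unique share and density of the CTCF consensus were each lower in long intervals on 20 of 20 chromosomes. For GC content the difference was smallest on X, with a median of 38.3% in long intervals and 39.1% in the others. Sites of DpnII, the enzyme that cut the chromatin, were not scarcer: they numbered 2.59 per kb inside long intervals and 2.49 per kb in the others, higher on 16 of 20 chromosomes.

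**Figure D2:**
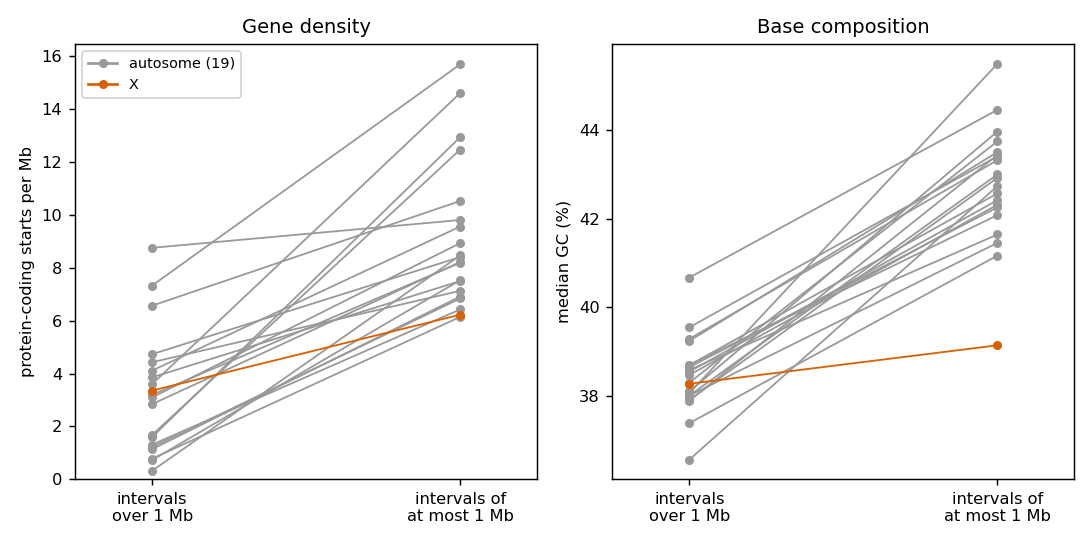
Protein-coding starts per Mb (left panel) and median GC content in percent (right panel) of intervals over 1 Mb and of intervals of at most 1 Mb, with a line for each of 20 chromosomes. Every line runs upward from the long intervals to the others, with X the flattest for GC content.

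Exact matches to the CTCF consensus were found 753 times inside long intervals, 2.38 per Mb, against 5.23 per Mb in the others, a ratio of 0.455. The consensus is rich in G and C, and intervals were therefore also compared within bands of GC content. Under 38% GC there were 1.09 matches per Mb in 94 long intervals, against 1.55 in 797 others. Between 38 and 40% GC there were 2.10 against 2.45 per Mb, and between 40 and 42% GC 3.85 against 3.83. At 42% GC and above, 25 long intervals had 5.40 matches per Mb and 4013 others 8.02. Within the bands the ratio was closer to 1 than over all intervals, and in 1 band the densities were nearly equal. No match at all was present in 34 long intervals.

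The intervals were sorted by gene content into 4 classes. The desert class, with at most 1 protein-coding start per Mb and less than 50% covered by any one protein-coding gene, numbered 114 (50.2%, exact 95% interval 43.5 to 56.9%). Of these, 54 had no protein-coding start, and the class held 65 starts in all. Gene bodies can still cover much of such an interval: in chr4:83630001-84825000 they covered 53.1%. In 35 intervals (15.4%) a single protein-coding gene covered at least 50% of the length, where the same held for 25.2% of all intervals, most of which are short. A tandem family of at least 5 genes that supplied at least 50% of the protein-coding starts marked 11 intervals, and 67 fell in none of these classes. Deserts had the lowest median GC content, 37.8%, tandem family intervals had 39.8%, and long gene intervals 38.4%. Median unique share was 91.1% in long gene intervals, 89.8% in deserts and 44.5% in tandem family intervals.

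The tandem family intervals held receptor genes above all. On chromosome 7, chr7:19975001-23525000 contained 50 of 209 genes for type 1 vomeronasal receptors, which detect pheromones in the vomeronasal organ, from Vmn1r91 to Vmn1r167. On the same chromosome, chr7:6945001-10240000 contained 24 genes for type 2 vomeronasal receptors from Vmn2r29 to Vmn2r52. Olfactory receptor genes, the family of Olfr16, filled intervals on chromosome 9 (53 genes, Olfr883 to Olfr948), chromosome 2 (48 genes, Olfr1097 to Olfr1154) and chromosome 11 (30 genes, Olfr20 to Olfr412). These 3 intervals measured 1.34, 1.07 and 1.11 Mb, and their unique shares of 86.7, 86.6 and 79.5% were far above those of the vomeronasal intervals, 11.2 and 19.6%. The interval on chromosome 11 lay between Strong boundaries scored 1.23 and 2.18.

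Secreted proteins formed the next group. All 22 major urinary protein genes, which encode pheromone carriers of the urine, lay in chr4:59935001-62245000 between boundaries scored 2.26 and 0.368. On chromosome 13, 21 of 26 prolactin family genes lay in 1.19 Mb that begins with Prl itself, the pituitary hormone gene, and ends with Prl2c1. A stretch of 2.75 Mb on chromosome 7 held 26 secretoglobin genes, which include androgen-binding protein genes, from Scgb2b2 to Scgb2b26. The interval chr8:19705001-21975000 held 22 of 22 genes of the Defa type and 10 of the Defb type, which encode antimicrobial defensins, among 47 protein-coding starts, and so did not reach the share that defines a tandem family interval. Its left boundary, scored 3.17, was the highest-scored of all that flank a long interval. Skint genes, relatives of a thymic selection factor of skin T cells, had 7 of 11 members in a 1.30 Mb interval, and Obox genes, homeobox genes of the oocyte, had 6 of 7 in an interval of 1.51 Mb.

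Other long intervals with many genes held zinc finger genes, predicted genes or several families. The 11.7 Mb on X held 47 protein-coding starts, 17 of them Btbd genes from Btbd35f29 to Btbd35f8, and 5 whose RefSeq product is a spindlin. The 3.75 Mb on chromosome 14 held 79 protein-coding starts and 100 pseudogenes, and 62 of the starts carry the placeholder symbol Gm of predicted genes. In the 3.44 Mb on chromosome 2, 15 of 31 genes with a RefSeq product had zinc finger in the product name. On chromosome 4, a tandem family interval of 2.54 Mb held 17 Zfp genes from Zfp980 to Zfp933 among 30 protein-coding starts, between boundaries scored 0.208 and 0.973. Another X interval, of 2.85 Mb, held 14 protein-coding starts, 11 of them named as ovary testis transcribed. On chromosome 6, chr6:122905001-124345000 combined 9 Clec genes, which encode C-type lectins of immune cells, with 9 Vmn2r genes. One interval without any protein-coding start, chr14:52605001-53700000, contained 94 receptor gene segments, which lymphocytes join to make antigen receptors, and 33.2% of its words were unique. It falls in the desert class, because that class counts protein-coding genes only.

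Gene lists were counted against the whole annotation, in which 5.17% of 21755 protein-coding starts lay inside long intervals. All 22 Mup genes were inside (exact 95% interval 84.6 to 100%), and so were 21 of 26 prolactins (80.8%), 7 of 11 Skint genes (63.6%) and 32 of 64 defensins (50%). Type 2 vomeronasal receptors had 35 of 120 inside (29.2%) and type 1 had 60 of 209 (28.7%). Zinc finger genes had 51 of 424 (12.0%, exact 95% interval 9.09 to 15.5%), and olfactory receptors 132 of 1135 (11.6%, 9.82 to 13.6%). Genes of one tandem family are neighbours, so these counts rest on few places: the prolactins on 1 interval, the type 1 receptors on 3 and the olfactory receptors on 4. Small lists above the share of all genes were Nlrp with 5 of 17 inside, Mage with 4 of 21, Speer with 2 of 10, Prame with 2 of 13 and Slx with 2 of 3, and their exact intervals are wide. Of protein-coding genes in no listed family, 3.90% lay inside.

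The lists at or under the share of all genes were of several kinds. Serpins had 3 of 61 inside (4.92%), Klr genes 1 of 26, ribosomal protein genes 1 of 80, histone genes 1 of 83 and cytochrome P450 genes 1 of 100. No keratin gene of 110 was inside, which by 3 counts of the total allows a share of up to 2.73% if each gene is taken as separate. The other lists with 0 inside were small: 35 bitter taste receptors, 39 Hox genes, 34 Rhox genes, 28 Psg and Ceacam genes, 22 Ugt genes, 15 trace amine receptors, 11 Ssx genes and 10 Xlr genes. Keratin and Hox genes also lie in tandem clusters, and these clusters were outside long intervals. Neighbouring genes are not separate counts, so these 0 counts rest on few places and the bound for keratins is too tight. They do not show how often tandem clusters lie in long intervals.

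**Figure D3:**
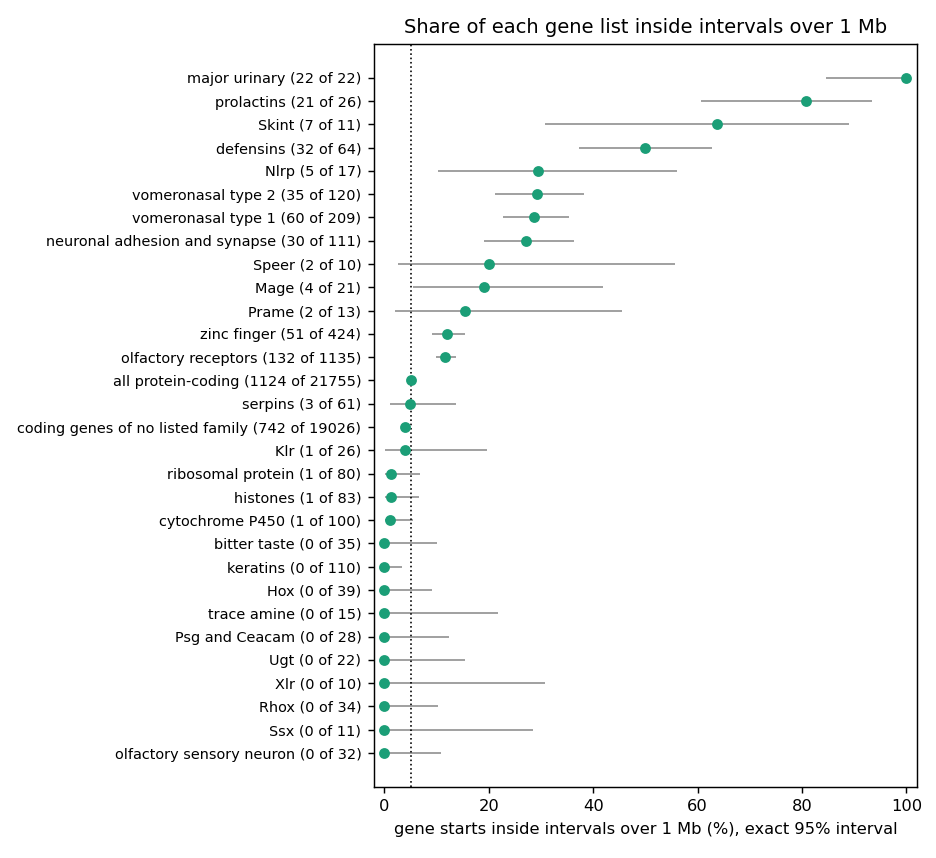
Percentage of each gene list (lists of 10 or more genes, with counts in brackets) that starts inside intervals over 1 Mb, with exact 95% intervals as bars and a dotted line at the 5.17% of all protein-coding starts. Mup genes, prolactins, Skint genes and defensins are at the top, and the olfactory sensory neuron list is at 0.

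The list of olfactory sensory neuron genes, counted apart from the olfactory receptor genes, was small. Of 32 genes of the olfactory sensory neuron list, 0 started inside, which allows a share of up to 9.38% (3 counts of the total) or 10.9% (upper end of the exact 95% interval). At the background share of 5.17%, a list of this size would hold few genes in any case. Examples, named after their values were seen, are Omp, a marker of mature neurons, Adcy3 and Cnga2, the cyclase and channel of odour transduction, and the transcription factor genes Lhx2 and Ebf1. The 31 of them that started between boundaries lay in intervals of 70 to 835 kb, with a median of 275 kb. The longest of these was that of Ncam2, an axonal adhesion gene, and the interval of Olfr16 measured 270 kb.

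Long genes reached into long intervals more often than genes in general. Of 59 protein-coding genes with an annotated span over 1 Mb, 20 had at least 50% of their span inside (33.9%, exact 95% interval 22.1 to 47.4%), against 5.29% of all protein-coding genes. Among genes of 500 kb to 1 Mb the share was 17.5% (30 of 171), and among genes of 100 to 500 kb it was 3.90%. A long gene without boundaries makes an interval long, so span and membership are linked by construction. The span runs over all annotated transcripts, and that of a few genes, such as 4435 kb for Gm20388, includes readthrough into neighbours (a gene chosen after its values were seen).

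Rbfox1 and Erbb4 lay entirely inside a long interval with 0 boundaries in their spans. Rbfox1, which encodes a neuronal splicing regulator, spans 1526 kb (chr16:5885355-7411526, + strand) and filled 82.3% of an interval between boundaries scored 1.12 and 0.300. Erbb4, a receptor for neuregulins, spans 1076 kb (chr1:68032186-69108059, - strand) between boundaries scored 0.253 and 1.94. Nrg1, which encodes a neuregulin, had 864.0 of its 1069 kb in a long interval on chromosome 8. Nrg3, another neuregulin gene, had 0 of its 1104 kb in a long interval (chosen after its values were seen).

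Lrp1b, Macrod2 and Magi2 were longer than the intervals they covered. Lrp1b, a receptor of the low-density lipoprotein receptor family, spans 2058 kb on chromosome 2 and had 2049 kb in 2 adjacent long intervals with 2 boundaries in its span. The boundary within the gene that separates these intervals was Weak and scored 0.301. Macrod2, an ADP-ribose hydrolase gene, covered the whole of a 1190 kb interval and held 3 boundaries in its 1998 kb. Magi2, a scaffold gene of synapses, covered a whole interval of 1085 kb between Weak boundaries scored 0.389 and 0.217.

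Adhesion and receptor genes of neurons made up much of the remainder. Ptprd, a receptor phosphatase gene that organises synapses, had 1659 kb of 2271 kb inside and 1 boundary in its span. Csmd3, which encodes a large membrane protein with complement-like domains, had 98.2% of its 1211 kb inside. Cdh13, a cadherin gene, had 99.5% of 1041 kb inside, and Nrxn3, a presynaptic neurexin gene chosen after its values were seen, 56.4% of 1612 kb. Naaladl2 had 1239 kb and Nkain2 1121 kb inside. Of the 35 genes that covered at least 50% of a long interval, 18 were on the list of neuronal adhesion and synapse genes. That list also holds Rbfox1 and Macrod2, so its name does not describe every member. All 35 exceed 500 kb, and the list holds 64 of the 230 protein-coding genes of that length.

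Great length alone did not place a gene in a long interval. Dlg2, a postsynaptic scaffold gene of 1973 kb, held 5 boundaries and had 0 kb inside (the genes in this paragraph other than Tenm2 were chosen after their values were seen). Lsamp, a cell adhesion gene of 2197 kb, held 7 and Csmd1 6 in 1643 kb, both with 0 kb inside. Dmd, the dystrophin gene on X, had 2 boundaries in 2257 kb and 0 kb inside. Cntnap2, a relative of neurexins, held 5 boundaries and had 20.9% of its 2245 kb inside. Tenm2, which encodes a teneurin of synaptic adhesion, started inside a long interval, but with 0.964 kb only, and held 4 boundaries in the rest of its 1229 kb. Genes over 1 Mb had a median of 2 boundaries in their spans, and 2.02 boundaries per Mb of span, against 2.81 for all protein-coding genes.

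**Figure D4:**
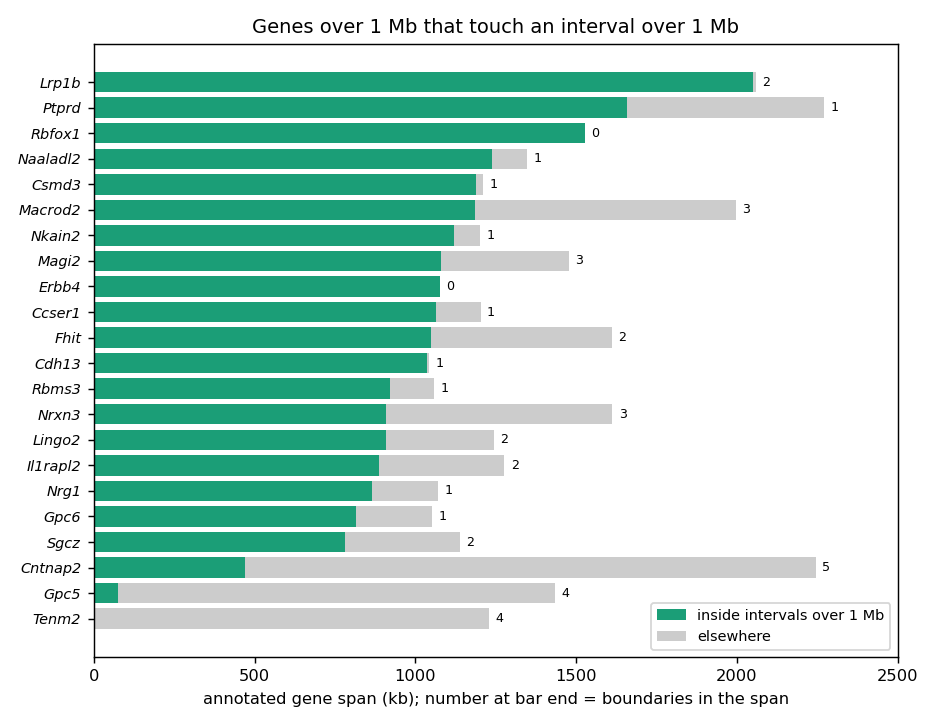
Annotated span in kb of 22 of the 23 protein-coding genes over 1 Mb that touch an interval over 1 Mb, with green for the length inside such intervals and grey for the rest; the number at the end of each bar counts the boundaries in the span. Lrp1b has the longest stretch inside, and Rbfox1 and Erbb4 hold 0 boundaries.

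The list of neuronal adhesion and synapse genes was counted by length as well. In all, 30 of 111 started inside a long interval (27.0%, exact 95% interval 19.0 to 36.3%), against 5.17% of all protein-coding genes. These genes are long, with a median span of 620.4 kb against 17.4 kb for all protein-coding genes. Among list members over 500 kb, 15 of 64 started inside (23.4%), and among other protein-coding genes over 500 kb 20 of 166 (12.0%). Among list members of at most 500 kb, 15 of 47 started inside (31.9%). The short members include Slitrk1 and Slitrk5, synaptic adhesion genes of 5.36 and 8.04 kb on chromosome 14, and Flrt3, an axon guidance gene of 20.6 kb that lies within Macrod2. Epha3, Epha5 and Epha7, receptors for ephrins, Sema3a and Sema3d, secreted guidance cues, and Gria1, Gria2 and Gria4, subunits of AMPA glutamate receptors, also started inside. The list was written with the earlier results on these boundaries known, so its share is a description.

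Stretches without protein-coding gene bodies, counted apart from the desert class, overlapped long intervals only in part. The genome had 270 stretches of more than 1 Mb between protein-coding gene bodies, 483.3 Mb in all, and these contained 990 boundaries, 2.05 per Mb against 2.91 per Mb of the genome. By length, 26.6% of these stretches lay inside long intervals, which take up 12.6% of the whole boundary span. At least 50% of the stretch lay inside long intervals for 69 of them (25.6%), while 154 had 0% inside. Only 7 contained 0 boundaries. The longest, 4.67 Mb on chromosome 8, held 13 boundaries and had 0% in long intervals. Most stretches without protein-coding genes thus contained boundaries.

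Among the long intervals of the desert class, the longest without any protein-coding gene were on chromosome 17. The interval chr17:91115001-93155000 had no protein-coding gene over its 2045 kb, 15 pseudogenes, 3 long noncoding RNA genes, 36.9% GC, 87.7% unique words and 1 CTCF consensus match, and its boundaries scored 0.796 and 0.642. A second interval, chr17:75635001-77655000, had no protein-coding gene over 2025 kb, 6 pseudogenes, 2 long noncoding RNA genes, 4 matches and boundaries scored 0.514 and 0.223. On chromosome 12, chr12:42370001-43740000 had no protein-coding gene, no pseudogene, 2 long noncoding RNA genes and 0 matches, between Weak boundaries scored 0.229 and 0.258. In 81 long intervals a stretch without protein-coding gene body exceeded 1 Mb. The longest such stretch, 2.31 Mb, lay in the 2.98 Mb interval of chromosome 12 with 20.4% unique words.

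Boundaries that flank long intervals had lower scores than the others. The 437 flanking boundaries had a median deposited score of 0.402 (quartiles 0.268 and 0.848), against 0.528 (quartiles 0.304 and 0.971) for the other 6998. The authors class boundaries as Strong or Weak at a score of about 0.500. Strong ones made up 41.6% of the flanking boundaries (182 of 437, exact 95% interval 37.0 to 46.4%), against 52.5% of the others and 51.8% of the whole list. The median at intervals of 1 to 1.5 Mb was 0.375, at 1.5 to 2 Mb 0.419 and over 2 Mb 0.645, so the lower scores did not hold for the longest intervals. Over all lengths, the flanking median was lower on 15 of 20 chromosomes and higher on 5. On autosomes the medians were 0.411 and 0.545, and on X 0.328 and 0.349. The score comes from the same contact map as the distances, so neither is independent evidence of the other, and the difference was not tested.

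The upper tail ran the other way. Scores over 2 were found for 26 flanking boundaries (5.95%), against 260 of the others (3.72%). Boundaries of the 27 intervals with few unique words had a median of 0.637, and 13.0% of them scored over 2, against a median of 0.382 and 4.94% for boundaries of the other 200. By class the median was 0.533 at tandem family intervals, 0.517 at intervals of mixed content, 0.363 at deserts and 0.332 at long gene intervals. At the ends of long gene intervals 17 of 70 boundaries were Strong (24.3%), and at the ends of deserts 87 of 228 (38.2%).

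**Figure D5:**
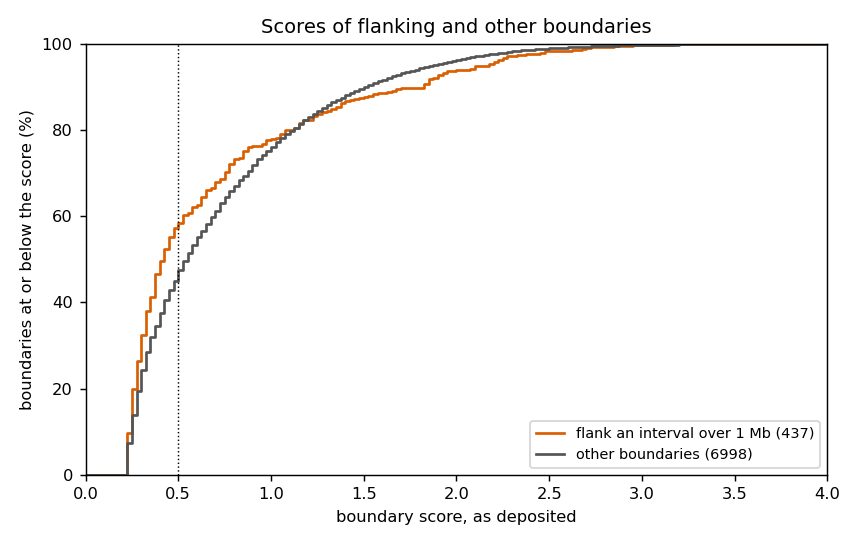
Cumulative percentage of boundaries (y axis) at or below each deposited score (x axis, no unit) for the 437 boundaries that flank an interval over 1 Mb and for the 6998 others, with a dotted line at 0.5. The curve of the flanking boundaries lies above that of the others at low scores, and 5.95% of flanking boundaries score over 2, against 3.72% of the others.

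The highest-scored flanking boundaries stood beside intervals of different kinds. After the boundary at 3.17 near 4930467E23Rik came one of 2.95 on chromosome 14, 9.32 kb from the start of Pcdh9, a protocadherin gene. On chromosome 18 a boundary scored 2.85 lay 1.96 kb from the start of Kctd16, a subunit gene of GABA-B receptors, and the interval it opens was closed by a boundary of 1.86. Next were boundaries near Utp18, a ribosome assembly gene, with 2.71, and within Adgre1, a macrophage receptor gene, with 2.68. The lowest scores, from 0.200 to 0.201, belonged to boundaries nearest to Glrx3, within Il1rapl2 and nearest to Tex13a, nearest to Cdh11, within Skint6, and within Mgat4c and nearest to Nts. A CTCF consensus match lay within 10 kb of 0 of the 5 highest and 1 of the 5 lowest, against 12.1% of all flanking boundaries.

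Gene starts and CTCF matches were scarcer at flanking boundaries. A protein-coding start lay within 10 kb of 46 of 437 (10.5%, exact 95% interval 7.81 to 13.8%), against 28.9% of the others and 27.8% of the whole list. The median distance to the nearest start was 128.0 kb for flanking boundaries and 30.1 kb for the others. A CTCF consensus match lay within 10 kb of 53 flanking boundaries (12.1%, exact 95% interval 9.22 to 15.6%), against 23.8% of the others and 23.1% of the whole list. Gene starts were less frequent at flanking boundaries on 20 of 20 chromosomes, and CTCF matches on 19. Long intervals are themselves poor in both, and how far the surrounding sequence accounts for the counts was not tested.

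Convergent CTCF matches, pointing into the interval from both ends, are the usual arrangement at loop anchors. Of 82 matches within 50 kb inside the flanks of long intervals, 48 pointed inward (58.5%, exact 95% interval 47.1 to 69.3%), against 64.7% of 5559 at other intervals over 100 kb. Inward matches at both ends within 50 kb were found in 4 long intervals (1.76%), against 411 of 7033 others (5.84%). Long intervals had fewer matches to pair, 82 at 227 intervals against 5559 at 7033. How far this accounts for the lower share of pairs was not tested. A separate count took matches within 10 kb of a boundary, on either side of it. By that count 2 of the 227 had matches of inward orientation at both ends. The right match of chromosome 4 and the left match of chromosome 11 lie outside the interval, so these 2 need not be among the 4. Their matches are shown in capitals, because no other long interval had such a pair. Each is given 5′ to 3′ on its own strand of GRCm38 with 20 bases on either side.
Chromosome 4, left, chr4:73081821-73081872, + strand: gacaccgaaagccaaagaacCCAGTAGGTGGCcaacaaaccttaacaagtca
Chromosome 4, right, chr4:74231641-74231692, - strand: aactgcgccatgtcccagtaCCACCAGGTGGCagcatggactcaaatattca
Chromosome 11, left, chr11:12785682-12785733, + strand: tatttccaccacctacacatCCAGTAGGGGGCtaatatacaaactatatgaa
Chromosome 11, right, chr11:13797537-13797588, - strand: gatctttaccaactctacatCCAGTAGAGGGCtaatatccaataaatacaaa

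The interval on chromosome 4 measured 1155 kb, held 13 protein-coding starts, Frmd3 the longest of them (chosen after its values were seen), and lay between Strong boundaries scored 0.571 and 0.666. The interval on chromosome 11 measured 1015 kb, held 0 protein-coding starts and lay between Weak boundaries scored 0.253 and 0.361. The 2 windows of chromosome 11 had the same base at 38 of 52 positions, against 23 of 52 for those of chromosome 4. Both counts include the positions in capitals, where the search itself fixed or limited the base. A match to the consensus is not a measured CTCF site.

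The boundaries at the ends of an interval were also read as pairs. Exactly 1 was Strong at 113 long intervals (49.8%), against 48.5% of the others. Both were Strong at 36 long intervals (15.9%), against 27.9% of the others, and both were Weak at 78 (34.4%), against 23.6%. The median of the lower score of each pair was 0.283 at long intervals and 0.336 at the others, and that of the higher score was 0.771 against 0.894.

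Some long intervals followed each other with 1 boundary between them. There were 11 runs of 2 and 3 runs of 3 adjacent long intervals, and the other 196 stood alone. The 17 boundaries between members of a run had a median score of 0.265, from 0.202 to 1.33, and 3 were Strong. The longest run covered 4.31 Mb of chromosome 14 with inner boundaries scored 0.226 and 0.356. Another, of 3.67 Mb on chromosome 4, had inner boundaries scored 0.220 and 0.363, the second 28.1 kb from the start of Epha7. On chromosome 11 a run of 3.38 Mb began beside the start of Tenm2, and its inner boundaries scored 0.215 and 0.346. On chromosome 5 the boundary inside Sema3d scored 1.33, the highest of the 17.

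Intervals close to the limit resembled each other on both sides of it. Exactly 1000 kb separated the boundaries of 6 intervals outside, and 5 intervals inside measured 1005 kb. In this paragraph an interval is named with the gene of longest overlap, which need not start in it. Just inside were chr7:88010001-89010000 with 124.9 kb of Grm5, a glutamate receptor gene that starts elsewhere, chr15:62705001-63705000 with 0 protein-coding starts and chr2:108345001-109345000 with Mettl15. Just outside were chr1:72865001-73860000 with Igfbp5, chr4:16295001-17290000 with 0 protein-coding starts and chr14:45740001-46735000 with Bmp4, a growth factor gene. The 65 intervals of 1 to 1.1 Mb had 2.72 protein-coding starts per Mb and a median flank score of 0.417, and the 87 of 0.9 to 1 Mb had 3.34 starts per Mb and 0.406. Their median GC contents were 38.7 and 38.8%.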

How the data were processed

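In situ Hi-C was made from 2 biological replicates of 1 cell group. The authors called boundaries on the combined contact matrix of both replicates, per the series' design text, and deposited them with a score and a class. Not given in the sources used here are the score's formula, the caller and the aligner. The build is GRCm38, per the submitters' processing notes. Contact matrices and signal tracks were not used here. All Strong boundaries scored at least 0.500.

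Intervals were taken from midpoint to midpoint of adjacent boundaries, and their contents from edge to edge, with 1-based coordinates. Genes came from GENCODE M21 and product names from RefSeq. A gene counted where it starts. Words of 50 bp were sampled every 1000 bp and counted on both strands of chromosomes 1 to 19, X and Y; the counting was tested on simulated sequence. Sequence features came from the reference genome. Python 3.11.15, numpy 2.4.6, pandas 2.3.3, scipy 1.17.1 and numba 0.67.0 were used. Exact intervals (Clopper-Pearson, 95%) and floors of 3 counts cover counting error only.

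Intervals, lists and classes were chosen with earlier results of these data known. Named genes were those of the 10 longest intervals, genes that cover a whole interval, the 10 with the longest stretch inside, the ends of tandem families, listed neuronal genes that start inside, genes at the 5 highest and 5 lowest flanks, and intervals next to the limit; others are said to be chosen after their values were seen. The stem Gm marks predicted genes and was not treated as a family, a departure from the planned rule; with it 8 more intervals would join the tandem family class. No test was run, since each value is pooled. Some genes are counted but not reported here by name.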

Additional observations from a re-analysis of the deposited data

How the results depend on the processing

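The 7 results were recomputed in 53 combinations with other settings, and 31 stayed within 1.5 times the count or inside the 95% interval of the value reported, while 22 moved. All results stayed so with autosomes only (212 intervals), without assembly gaps in the length (224 intervals), and without the longest interval on X, an alternative added after seeing the data. Measured from edge to edge, 222 intervals passed 1 Mb. The limit mattered most. Over 1.5 Mb there were 45 intervals with 5.37 protein-coding starts per Mb, 11.1% with no start, a median flank score of 0.509, 51.1% Strong flanks and 86.3% unique words. Over 2 Mb there were 18, with 8.17 starts per Mb, 11.1% with no start, a median flank score of 0.645, 61.1% Strong flanks, 27.9% unique words and 40.8% GC. With Strong boundaries only, 587 intervals passed 1 Mb, with 3.86 starts per Mb, 4.94% with no start, a median flank score of 1.05, 100% Strong flanks by construction and 39.6% GC. With at least 60% unique words, the density was 1.94 starts per Mb. With genes counted by any overlap, 22.5% of intervals had none. With words of 100 bp, the median unique share was 94.4%. No paired analysis was possible because the deposited list pools both replicates; for the same reason no replicate could be left out.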

Other observations

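Intervals rich in CTCF consensus matches and poor in unique sequence also occurred among the long ones. The 94 receptor gene segments of chr14:52605001-53700000 came with 22 matches, 20.1 per Mb, against 2.38 per Mb over all long intervals, between boundaries scored 0.874 and 0.205. Desert intervals, which include chr14:52605001-53700000, had 1.79 matches per Mb, long gene intervals 2.17, intervals of mixed content 2.82 and tandem family intervals 4.05. In the tandem family class 39 of 89 matches lay in the interval of the Mup genes, and without it the density was 2.54 per Mb. Class densities are per Mb of midpoint-to-midpoint length with assembly gaps included, whereas the 2.38 per Mb leaves gaps out. Beside that value, classes with gaps therefore read low.

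The values rest on 1 pooled list. A missing boundary cannot be told apart from one that the authors' caller left under its lowest score of 0.200, and depth per position is unknown. Assembly gaps lay in 21 long intervals, 5.01 Mb in all. Long intervals differ from the others in base composition, gene density and repeated sequence together, and their parts were not separated beyond the comparisons given.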
